A study of Mus musculus with 6 samples.

Results

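The postsynaptic scaffold of excitatory synapses was examined in mouse hippocampal RNA through 10 genes: Homer1, Shank1, Shank2, Shank3, Dlgap1, Dlgap2, Dlgap3, Dlgap4, Dlg4 and Dlg2. The genes were chosen by name, their circular RNAs (circRNAs) by the host symbol in the authors' lists, and their linear transcript events by gene identifier. They hosted 55 of the 11895 listed circRNAs, in 9 of the 10 genes, and 259 of 315379 transcript events carried one of their identifiers. Libraries came from 2 groups of healthy 14-month-old male C57BL/6 mice kept in a specific-pathogen-free room: 3 libraries from mice given dihydrotestosterone (DHT), the potent non-aromatisable androgen, under the skin once a day for 14 days, and 3 from mice injected with medical corn oil, the vehicle, on the same schedule. Neither a dose nor a statement that each library was 1 animal stands in the labels, so a p-value here speaks only for the spread from library to library. The mice sequenced were described as representative of their groups.

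The proteins of these genes form a layered lattice beneath the membrane of the dendritic spine. Dlg4 (PSD-95) and Dlg2 (PSD-93) are membrane-associated guanylate kinases that hold NMDA and AMPA receptor complexes, the Dlgap (SAPAP or GKAP) proteins bind the guanylate kinase domain, Shank proteins bind the Dlgap proteins, and Homer proteins cross-link Shank to metabotropic glutamate receptors. circRNAs arise when a downstream splice donor joins an upstream acceptor, and a read over that back-splice junction marks the circle. Neuronal genes are rich in circles, and the Homer1 circle of the early exons is a known synaptic circRNA.

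Libraries held 43512 to 55325 junction reads in DHT and 43573 to 48212 in oil, from 143.3 to 177.3 M mapped reads in DHT and 154.2 to 158.7 M in oil. A circRNA was listed in a library only with at least 2 reads, and an unlisted one was counted as 0. Of 7 excitatory hippocampal markers 4 exceeded 1 FPKM (fragments per kilobase and mega reads) on average, with Dsp listed at 0 in all 6 libraries, Neurod6 at 0 in 5 and Spink8 under 0.5 FPKM. Of 9 striatal markers 8 exceeded 1 FPKM, with Drd1 listed at 0. These marker sums overlapped between groups: 83.6 to 122.7 FPKM in DHT and 75.7 to 101.7 FPKM in oil for the hippocampal list, and 185.0 to 349.2 FPKM in DHT and 266.2 to 296.6 FPKM in oil for the striatal list. The largest hippocampal markers leaned in opposite directions, with overlap. Slc17a7 had 66.50, 51.44 and 90.46 FPKM in DHT and 35.71, 42.22 and 55.18 FPKM in oil. Grin2b had 10.83, 34.82 and 23.92 FPKM in DHT and 30.19, 44.75 and 32.62 FPKM in oil. Neuronal markers summed to 523.3 to 769.4 FPKM in DHT and 619.1 to 685.5 FPKM in oil, and astrocyte markers to 55.0 to 96.8 FPKM in DHT and 70.3 to 89.2 FPKM in oil. The tissue is named below as the labels give it. In such bulk tissue, fewer cells of a type and less RNA per cell cannot be told apart.

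RefSeq promoter windows (GRCm38.p6) were matched for 7 of the 10 genes, 13 windows in all. The 4 shown are the 250 bases before 3 start sites that carried a first-exon event in every library and 1 Homer1 start that was nearly silent, since the choice of first exon separated the groups at Dlgap3, as described below. All are on the plus strand, and capitals mark CG dinucleotides.

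Dlgap3, chr4:127172630-127172879: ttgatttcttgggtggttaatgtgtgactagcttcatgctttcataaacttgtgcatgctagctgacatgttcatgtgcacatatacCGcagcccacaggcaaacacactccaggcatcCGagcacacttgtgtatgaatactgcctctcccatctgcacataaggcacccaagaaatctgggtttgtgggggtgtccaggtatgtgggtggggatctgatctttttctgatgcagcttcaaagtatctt

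Homer1, chr13:93303507-93303756: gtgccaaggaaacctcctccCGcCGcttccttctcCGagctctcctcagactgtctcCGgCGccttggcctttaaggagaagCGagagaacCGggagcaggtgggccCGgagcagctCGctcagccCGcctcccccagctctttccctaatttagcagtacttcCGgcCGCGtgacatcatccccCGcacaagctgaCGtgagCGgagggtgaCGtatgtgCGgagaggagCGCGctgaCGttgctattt

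Homer1 second start, chr13:93307784-93308033: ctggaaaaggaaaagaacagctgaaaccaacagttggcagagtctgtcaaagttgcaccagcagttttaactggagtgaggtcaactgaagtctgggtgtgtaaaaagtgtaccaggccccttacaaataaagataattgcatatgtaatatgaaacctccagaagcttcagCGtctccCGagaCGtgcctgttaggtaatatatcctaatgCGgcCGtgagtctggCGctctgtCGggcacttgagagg

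Shank3, chr15:89499358-89499607: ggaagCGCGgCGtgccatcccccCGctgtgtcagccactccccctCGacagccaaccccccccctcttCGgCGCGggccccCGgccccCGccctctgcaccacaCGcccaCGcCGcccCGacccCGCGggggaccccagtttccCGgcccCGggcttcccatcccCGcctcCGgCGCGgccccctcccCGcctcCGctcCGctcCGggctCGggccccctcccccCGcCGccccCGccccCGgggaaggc

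The Dlgap3 window held 2 CG dinucleotides at 46.8% G and C, against 21 at 62.4% in the Homer1 window and 31 at 82.4% in that of Shank3. The median of all 32851 windows was 6 CG dinucleotides and 52.4% G and C. The Homer1 second start had 7, and its first-exon event was listed at 0 in all 3 DHT libraries and at 0.34, 0 and 0 FPKM in the oil libraries.

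Circles of the scaffold genes took a larger share of the junction reads in every DHT library than in any oil library. The 55 circles held 0.947%, 0.925% and 0.811% of junction reads in the DHT libraries, against 0.689%, 0.574% and 0.640% in the oil libraries. The mean was 0.894% ± 0.073 in DHT and 0.634% ± 0.0577 in oil (SD, n = 3 each). These shares are a description, since the genes were chosen with earlier results of these data known. The 2212 reads were uneven among the genes: Dlgap1 had 704 reads over 14 circles, Homer1 676 over 7, Shank3 541 over 7 and Dlg2 160 over 10. Dlgap2 had 72 reads over 8 circles, Dlgap4 27 over 3, Dlgap3 22 over 3, Shank2 8 over 2 and Shank1 2 in 1 circle. Dlg4 had none listed, although its linear transcripts were the most abundant of the 10 in DHT and oil.

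The leading circle of each of the 3 main hosts carried most of its junction reads: 76.2% in Homer1, 71.4% in Dlgap1 and 59.9% in Shank3. The leading Homer1 circle (chr13:93341756-93356079, 515 reads) ranked 42nd of all circRNAs by reads, and its ends matched the outer edges of 4 exons of 157, 132, 93 and 140 bases, 522 bases in all. A shorter circle from the same start (chr13:93341756-93349297, 70 reads) held the first 3 of those exons, 382 bases. A separate circle lay downstream (chr13:93386345-93393108, 73 reads) and spanned 4 exons of 36, 157, 111 and 81 bases. The leading Dlgap1 circle (chr17:70761075-70787209, 503 reads) ranked 44th, and a shorter Dlgap1 circle used the same start (chr17:70761075-70766089, 113 reads). The 4 Shank3 circles with at least 20 reads shared the other end, position 89549882 of chromosome 15, and began at 89543100 (324 reads), 89547626 (139 reads), 89538015 (42 reads) and 89525160 (26 reads). The one from 89547626 matched a single exon of 2257 bases. The Dlg2 circle (chr7:91626329-91626813, 114 reads) was an intronic one of 485 bases, classed so by the authors.

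**Figure D1:**
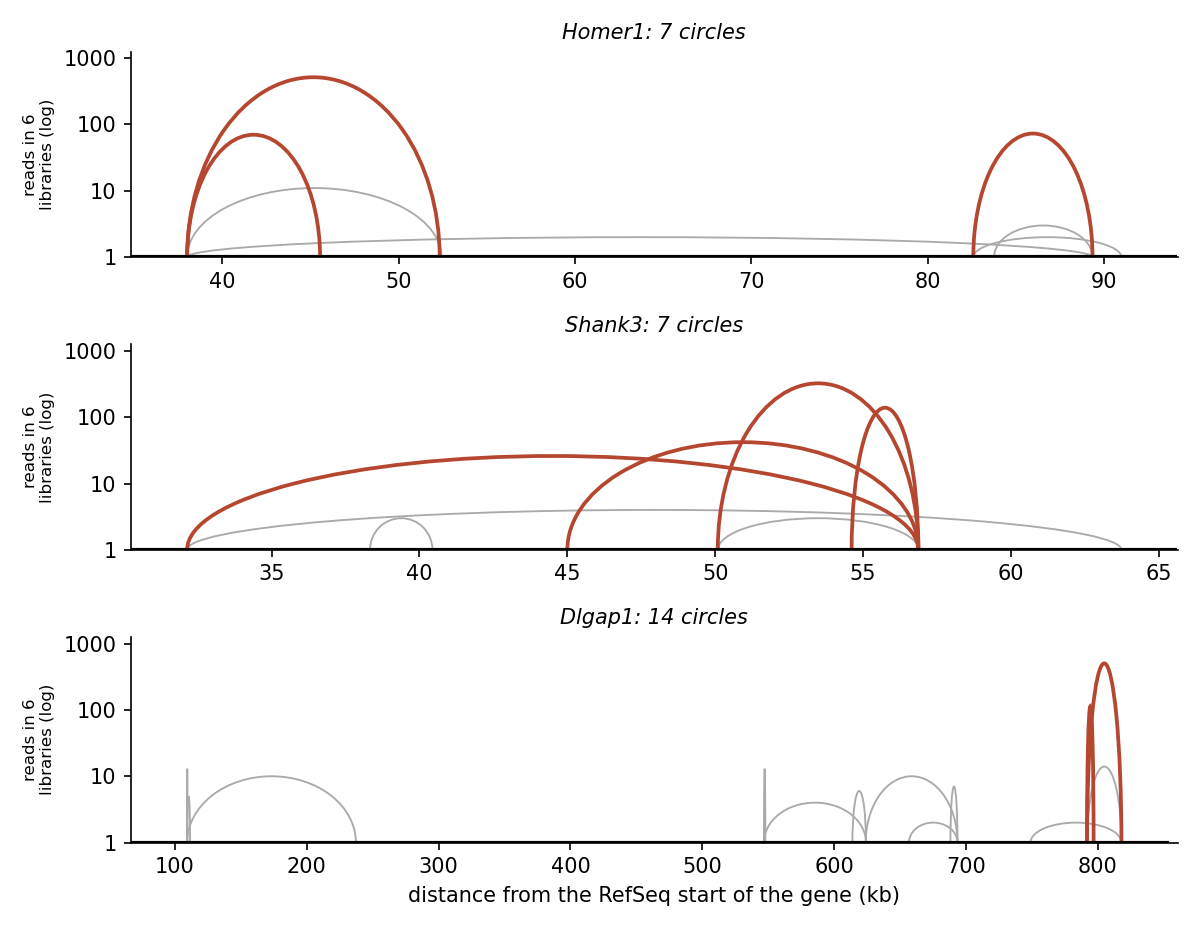
Circles of Homer1, Shank3 and Dlgap1. Each arc joins the ends of a circle, by distance from the RefSeq gene start in kb (a different range in each panel), and its height gives the reads in 6 libraries on a log axis; red arcs have at least 20 reads and grey arcs fewer. The Shank3 circles fan out from a shared downstream end, the leading Homer1 and Dlgap1 circles share their upstream end with shorter ones.

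Summed over all circles of a gene, Dlgap1, Shank3 and Homer1 each had more reads per M (mega) junction reads in every DHT library than in any oil library, and none of the 3 passed the adjusted threshold. Dlgap1 circles had 170, 156 and 108 reads in DHT and 116, 77 and 77 in oil, or 2900 ± 393 and 1950 ± 365 reads per M junction reads (SD, n = 3 each). The Dlgap1 log2 fold change was 0.57 (SE 0.18, adjusted p = 0.758 by edgeR's quasi-likelihood test with Benjamini-Hochberg adjustment). Dlgap1 oil library 1 was the nearest to the DHT libraries, at 2360 per M against 2450 in DHT library 3.

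Shank3 circles had 135, 111 and 93 reads in DHT and 49, 71 and 82 in oil, or 2270 ± 191 and 1490 ± 465 reads per M. The Shank3 difference was 0.62 on the log2 scale (SE 0.22, adjusted p = 0.861 by edgeR). Homer1 circles had 153, 132 and 116 reads in DHT and 106, 84 and 85 in oil, or 2700 ± 101 and 1990 ± 166 reads per M. The Homer1 difference was 0.44 (SE 0.17, adjusted p = 0.942 by edgeR). In all 3 genes the groups did not overlap per M junction reads.

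The other 4 hosts with at least 20 reads were less separated or sparser. Dlgap4, a Dlgap family member, had 9, 9 and 5 reads in DHT and 2, 2 and 0 in oil. Its DHT-to-oil ratio of summed reads per junction read was 5.32, with an exact 95% interval from 1.82 to 21.2 that covers counting error only, and edgeR gave an adjusted p = 0.999. The 5 reads of DHT library 3 came from a circle listed there alone, and 4 of the 9 in DHT library 2 from another listed only there. The Dlgap4 circle listed in both groups had 9, 5 and 0 reads in DHT and 2, 2 and 0 in oil, with overlap. Dlg2 had 38, 35 and 12 reads in DHT and 31, 18 and 26 in oil (log2 fold change 0.05, interval of 2 SE from -0.70 to 0.80). Dlgap2 had 17, 16 and 8 in DHT and 20, 5 and 6 in oil (0.30, interval -0.85 to 1.45). Dlgap3 had 0, 2 and 9 in DHT and 8, 0 and 3 in oil, so its direction was not detectable at this depth. Dlg2, Dlgap2 and Dlgap3 overlapped between groups.

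All 7 tested hosts had a positive fold change, with a median of 0.44, against 53% positive and a median of 0.03 among the 1722 hosts tested. The groups did not overlap, DHT higher, in 4 of the 7, against 6.1% of all hosts, and 1 of the 4 was the sparse Dlgap4. An unadjusted p under 0.05 with DHT higher was found for 3 of the 7, against 2.85% of all hosts. No host passed the adjusted threshold of 0.05 with edgeR (0%) or DESeq2, and 72 of the 1722 (4.18%) had an unadjusted edgeR p under 0.05. Without oil library 2 4 of the 7 stayed positive (57.1%), and Dlgap2, Dlgap3 and Dlg2 turned negative. Homer1, Shank3 and Dlgap1 stayed positive without any single library, at 0.37 to 0.50, 0.39 to 0.83 and 0.47 to 0.74.

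**Figure D2:**
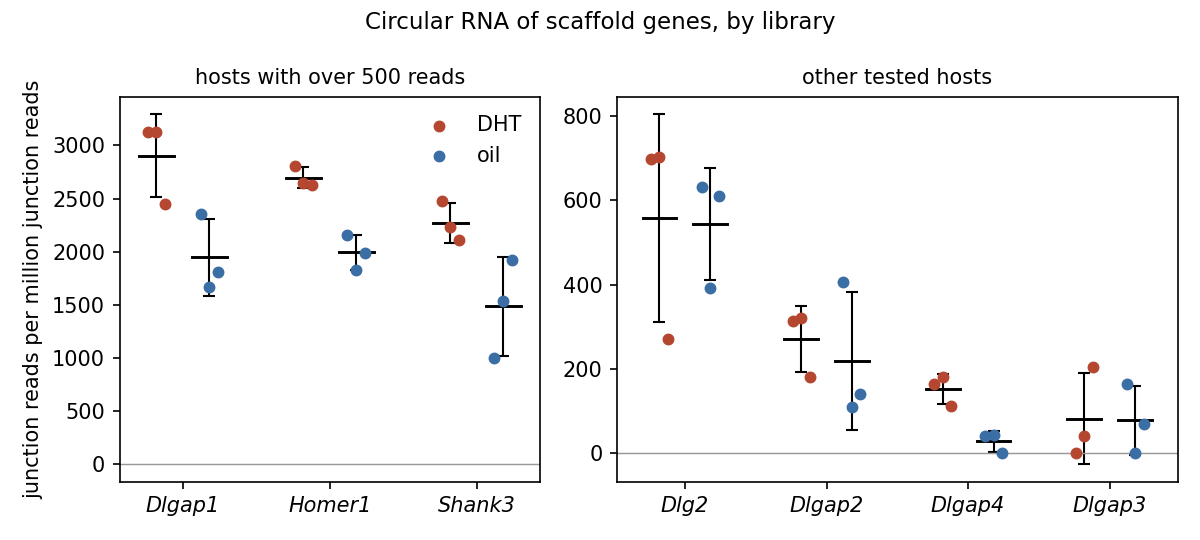
Junction reads per M junction reads (after TMM scaling) summed over the circles of each scaffold gene, one point per library, DHT left of oil, with the mean as a bar and 1 SD as whiskers (n = 3 each). Dlgap1, Homer1 and Shank3, in the left panel, show no overlap between groups. Nor does Dlgap4, on 9, 9 and 5 reads in DHT and 2, 2 and 0 in oil, some from circles listed in 1 library. Dlg2, Dlgap2 and Dlgap3 overlap.

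Single circles, whose reads make up the host sums, had the same direction with wider errors. Of the 55 circles, 11 had the 20 reads needed for a test, and the other 44 had 2 to 18 reads each, 152 in DHT and 107 in oil. Of the 55, 13 were listed in DHT libraries alone and 14 in oil libraries alone. All 11 tested circles had a positive fold change (median 0.55), against 50.4% of the 2524 circRNAs tested (median 0.01). Several of the 11 share a gene and an end, so they are not independent. An unadjusted p under 0.05 was reached by 1 of the 11, against 3.13% of all circRNAs (79), and no circRNA passed adjustment with edgeR (0%) or DESeq2. The groups did not overlap, DHT higher, for 1 of the 11, against 5.74% of all. Every tested circle of these genes had an adjusted edgeR p of 0.996.

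The leading Dlgap1 circle had 128, 100 and 81 reads in DHT and 87, 51 and 56 in oil (log2 fold change 0.55, SE 0.23). Its level was 2390, 2020 and 1780 per M in DHT and 1780, 1110 and 1320 per M in oil, so the lowest DHT library met the highest oil library. The shorter Dlgap1 circle had 26, 24 and 15 reads in DHT and 19, 14 and 15 in oil (0.31, SE 0.34). The leading Homer1 circle had 108, 91 and 99 reads in DHT and 87, 65 and 65 in oil (0.35, SE 0.20), and it was the 1 tested circle whose groups did not overlap. The downstream Homer1 circle had 24, 17 and 8 reads in DHT and 7, 8 and 9 in oil, with DHT library 3 among the oil values.

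The leading Shank3 circle had 79, 67 and 51 reads in DHT and 27, 59 and 41 in oil (0.50, SE 0.29). The single-exon Shank3 circle had 28, 34 and 32 reads in DHT and 8, 9 and 28 in oil (0.92, SE 0.45). Oil library 3 held as many reads of it as the DHT libraries, whereas oil libraries 1 and 2 were low. The Dlg2 intronic circle had 29, 21 and 12 reads in DHT and 21, 10 and 21 in oil (0.12, SE 0.40), and its groups overlapped. The remaining 4 tested circles had 26 to 70 reads and fold changes from 0.41 to 1.33 with SE from 0.50 to 1.03.

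Linear reads at the same circles had smaller fold changes than the junction reads at 9 of the 10 circles that could be compared, with smaller errors. The authors gave a linear read count where a circle was listed, so these 10 of the 55 circles are the ones listed in all 6 libraries. Their linear log2 fold changes were positive for 9 of 10 (median 0.20, against -0.003 and 49.3% positive among 1581 tested). An unadjusted p under 0.05 with DHT higher was found for 5 of the 10, against 6.39% of all, and 1 of the 10 passed adjustment, against 0.886% of all. Those 5 were the 2 Dlgap1 circles, which share a start, and the 3 Shank3 circles, which share an end. Some linear reads may thus count at more than 1 circle, so the 5 are not independent. The one that passed adjustment was the linear count at the shorter Dlgap1 circle, at 11.4, 10.1 and 9.69 reads per M mapped reads in DHT and 8.37, 7.98 and 7.69 in oil. Its log2 fold change was 0.35 (SE 0.08, adjusted p = 0.0108 by edgeR). That call was lost without any 1 of the 3 oil libraries, with adjusted p from 0.0915 to 0.106, at fold changes of 0.35 to 0.37. Over all settings tried its adjusted p ran from 0.000167 to 0.106. At the leading Dlgap1 circle, which shares that start so that some of the same linear reads may count at both, the linear fold change was 0.29 (SE 0.08, adjusted p = 0.0786).

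**Figure D3:**
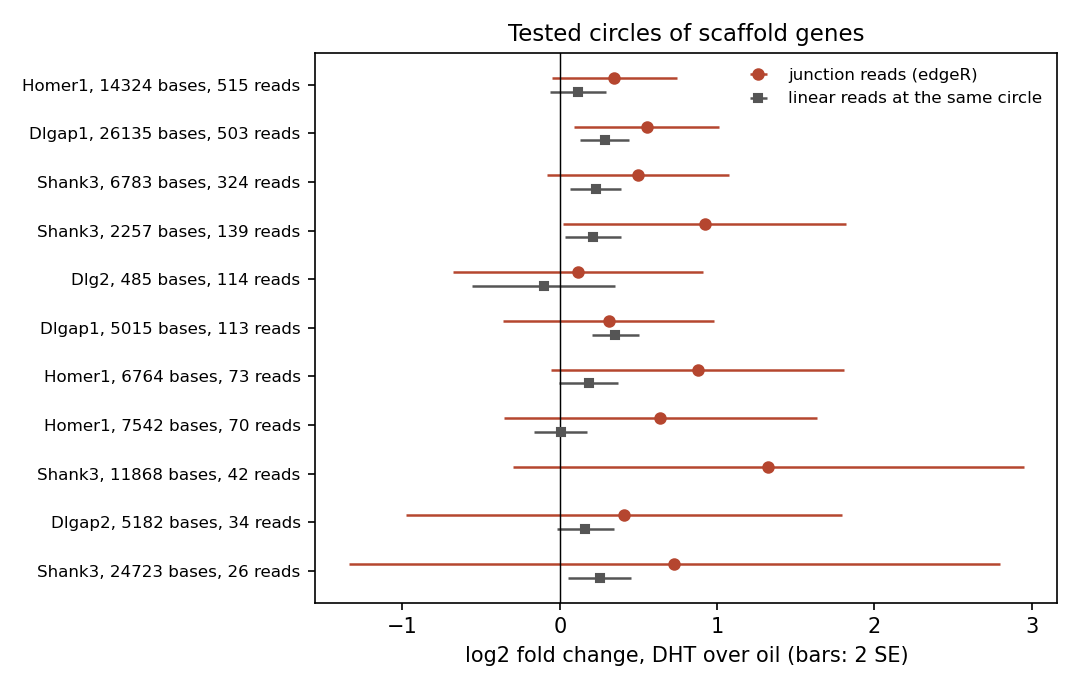
Log2 fold change, DHT over oil, of junction reads (red circles) at the 11 tested circles, ordered by reads, with bars of 2 SE. Linear reads (grey squares) are shown at the 10 of them listed in all 6 libraries. Span in bases is the distance between the ends on the genome. All 11 circle values lie right of 0, and the linear values lie between -0.10 and 0.35.

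The ratio of circular to linear reads within a library cancels library size. It was higher in DHT for 9 of the 10 circles (median 0.34 on the log2 scale, against 0.03 and 53% positive among 1581). One of the 10 had an unadjusted limma p under 0.05 with DHT higher, against 3.23% of all, and none of the 10 passed adjustment, against 0.0633% of all. That one was the single-exon Shank3 circle, where circular reads were 5.15%, 6.26% and 7.03% of circular plus linear reads in DHT and 1.76%, 2.18% and 7.67% in oil (log2 0.97, SE 0.40, adjusted p = 0.789 by limma). Oil library 3 was the highest of the 6. Summed over the circles listed in all libraries, the circular share of Homer1 was 5.80% ± 0.54 in DHT and 4.46% ± 0.862 in oil, and that of Shank3 was 5.90% ± 0.182 in DHT and 4.46% ± 1.76 in oil (SD, n = 3 each, exact two-sided permutation p = 0.2 for each). The share of Dlgap1 was 4.13% ± 0.212 in DHT and 3.56% ± 0.777 in oil (exact permutation p = 0.4, where 0.1 is the smallest that 3 against 3 allows). For Dlgap2 and Dlg2, with 1 circle each, the exact permutation p was 0.5. With Benjamini-Hochberg adjustment over these 5 comparisons every p was 0.5. With 3 libraries against 3 no share could have passed the threshold of 0.05.

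The members also differed among themselves in how circular they were. Over all libraries, circular reads were 26.5% of the reads at the Dlg2 intronic circle, the 92.3rd percentile of 1581 circRNAs, with a median of 10.1% for the 53 intronic ones among them. The leading Homer1 circle reached 11.7%, the leading Shank3 circle 7.56% and the leading Dlgap1 circle 7.41%, against a median of 5.04%. The shorter circles that share an end with them, of Homer1 and Dlgap1, were at 1.17% and 1.26%, whereas the single-exon circle of Shank3, which also shares an end, was at 5.01%.

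Linear transcript levels overlapped between the groups for 8 of the 10 genes. The gene value was the larger of the summed first-exon and last-exon FPKM of a locus. No event carried the Homer1 identifier, and the 2 of Dlg2 were listed at 0 apart from 0.67 FPKM in oil library 3. The assembled loci that span these genes are filed under Gm47155 (chr13:93299635-93438094) and Gm45201 (chr7:90451154-92420673), with 51 events together. Those loci were used for Homer1 and Dlg2 after the files had been seen, and reads of the overlapping genes cannot be told apart there.

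By mean gene value in DHT libraries the order was Dlg4 (84.7 FPKM), Dlgap1 (69.7 FPKM), Shank1 (67.1 FPKM), the Dlg2 locus (55.7 FPKM), Dlgap3 (38.1 FPKM), Dlgap4 (33.8 FPKM), Shank3 (18.1 FPKM), Shank2 (17.9 FPKM), the Homer1 locus (17.5 FPKM) and Dlgap2 (15.6 FPKM). In oil libraries the means of these genes, in the same order, were 83.8, 66.3, 76.5, 54.9, 26.3, 27.7, 17.2, 15.2, 13.5 and 14.5 FPKM. Dlgap1 and Shank1 overlapped in their libraries, as did Dlgap3 and Dlgap4, and so did the lowest 4. The order of circles differed in part. Dlgap1, near the top by linear level, had the most circle reads, 704. Dlg4 and Shank1, also near the top, had 0 and 2, and the Homer1 locus, at about the level of Shank2, had 676 against 8.

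Of the receptor-binding guanylate kinases, Dlg4 had 85.59, 84.23 and 84.23 FPKM in DHT and 91.77, 91.63 and 67.97 FPKM in oil (log2 fold change 0.03, SE 0.14). The Dlg2 locus had 54.44, 56.63 and 56.09 FPKM in DHT and 59.91, 46.46 and 58.32 FPKM in oil (0.03, SE 0.12). For both, the 3 DHT libraries lay within the oil range. Centring each library on its median turned both differences negative, to -0.032 for Dlg4 and -0.031 for the Dlg2 locus.

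Of the Dlgap genes, whose products link these kinases to Shank, Dlgap3 and Dlgap4 were separated by group in uncentred values. Dlgap3 (SAPAP3) had 40.86, 37.82 and 35.64 FPKM in DHT and 19.26, 35.16 and 24.34 FPKM in oil (log2 fold change 0.57, SE 0.21, adjusted p = 0.658 by limma). The groups did not overlap, by a margin of less than 1 FPKM at oil library 2. The library medians were higher in every DHT library (2.09 to 2.12 on the log2 scale) than in any oil library (2.02 to 2.07). So narrow a separation of Dlgap3 thus depends on the values not being centred. Dlgap4 had 30.86, 37.32 and 33.30 FPKM in DHT and 26.94, 28.28 and 27.74 FPKM in oil (0.28, SE 0.10, adjusted p = 0.658 by limma), again without overlap. After centring, the log2 differences were 0.51 for Dlgap3 and 0.22 for Dlgap4. Dlgap1 had 71.54, 71.83 and 65.62 FPKM in DHT and 68.92, 63.92 and 66.15 FPKM in oil (0.07, SE 0.09), with overlap. Dlgap2 had 18.60, 14.48 and 13.65 FPKM in DHT and 15.77, 14.00 and 13.77 FPKM in oil (0.09, SE 0.14), also with overlap. Oligodendrocyte markers summed to 320.5, 330.0 and 385.2 FPKM in DHT and 259.0, 292.3 and 332.9 FPKM in oil, and striatal markers to 185.0, 349.2 and 291.9 FPKM in DHT and 273.0, 296.6 and 266.2 FPKM in oil; their part in these differences was not tested.

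Of the Shank genes, Shank2 had 19.06, 18.45 and 16.33 FPKM in DHT and 16.82, 14.87 and 13.96 FPKM in oil (0.23, SE 0.11, adjusted p = 0.671 by limma), with 1 oil library inside the DHT range. Shank3 had 21.03, 16.94 and 16.42 FPKM in DHT and 17.30, 14.54 and 19.81 FPKM in oil (0.07, SE 0.15), and its groups overlapped. Shank1 had 70.93, 59.00 and 71.50 FPKM in DHT and 115.06, 62.57 and 51.87 FPKM in oil (-0.11, SE 0.28), with the highest and lowest values both in oil. The Homer1 locus had 18.61, 19.16 and 14.61 FPKM in DHT and 8.22, 14.73 and 17.43 FPKM in oil (0.42, SE 0.27), with overlap.

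Of the 10 gene values 9 were higher in DHT, with a median log2 fold change of 0.08, against 63.6% and 0.07 for the 11368 genes tested. After centring, 7 of 10 were higher with a median of 0.02, against 51.4% and 0.01 for all genes, so the members as a list lay close to the background. An unadjusted p under 0.05 with DHT higher was found for 2 of 10, against 5.79% of all genes, and for 0 of 10 after centring. None passed adjustment, against 0.0176% of all genes (2 of 11368). Before centring, the groups did not overlap, DHT higher, for Dlgap3 and Dlgap4, against 12% of all genes.

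**Figure D4:**
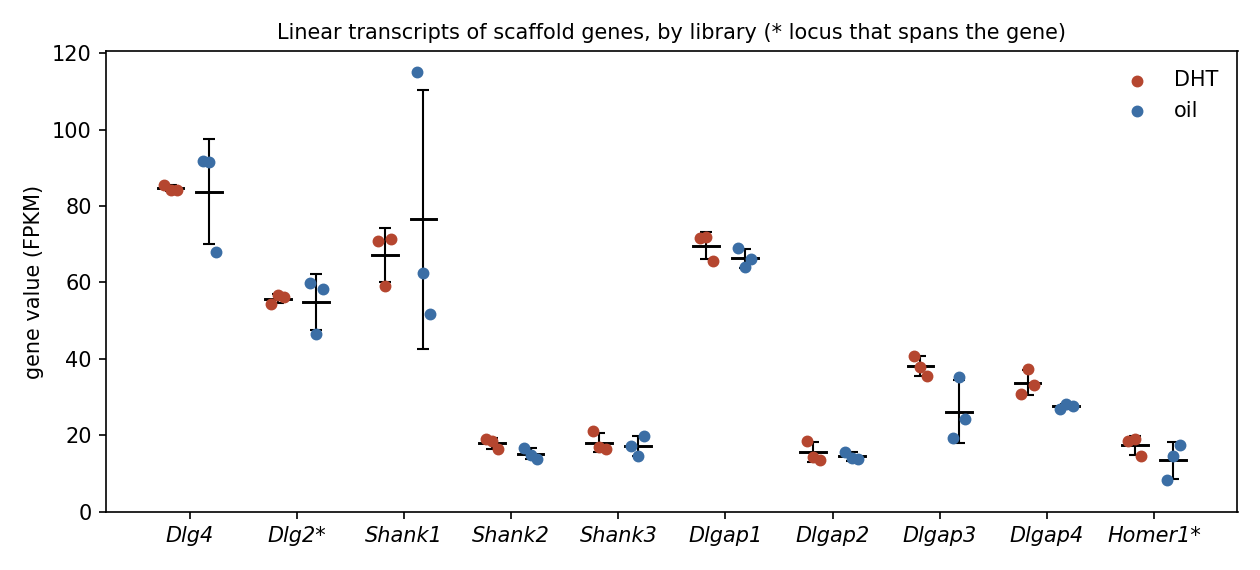
Gene values in FPKM of the 10 scaffold genes, one point per library, DHT left of oil, with the mean as a bar and 1 SD as whiskers (n = 3 each). In these uncentred values Dlgap3 and Dlgap4 show no overlap between groups, and Shank1 has its highest and lowest library in the oil group.

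Which first exon carried the Dlgap3 signal was separated by group, without passing adjustment. The first exon that starts at the RefSeq start 127172880 of chromosome 4 (4575 bases inside the outermost gene start, with the CG-poor window printed above) had 32.02, 21.84 and 28.24 FPKM in DHT and 2.59, 12.26 and 4.58 FPKM in oil. It carried 78.4%, 57.7% and 79.3% of the first-exon signal of Dlgap3 in DHT and 14.0%, 34.9% and 18.8% in oil. Every DHT library was above every oil library by level and by share. The log2 ratio to the other first exons differed by 3.13 (SE 0.57, adjusted p = 0.559 by limma), and it stayed between 2.80 and 3.59 without any single library.

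The outermost Dlgap3 first exon, which starts 7 bases inside the RefSeq gene start, went the other way. It had 1.10, 9.65 and 0.81 FPKM in DHT and 9.62, 15.17 and 17.51 FPKM in oil, or 2.7%, 25.5% and 2.3% of the first-exon signal in DHT and 52.2%, 43.1% and 72.0% in oil. The log2 ratio differed by -3.98 (SE 0.996, adjusted p = 0.855 by limma). The shares did not overlap, whereas DHT library 2 and oil library 1 had nearly equal levels. The 2 shares of 1 gene are not independent, since they add up with those of the other 2 first exons. Neither passed adjustment over the 42673 events tested.

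**Figure D5:**
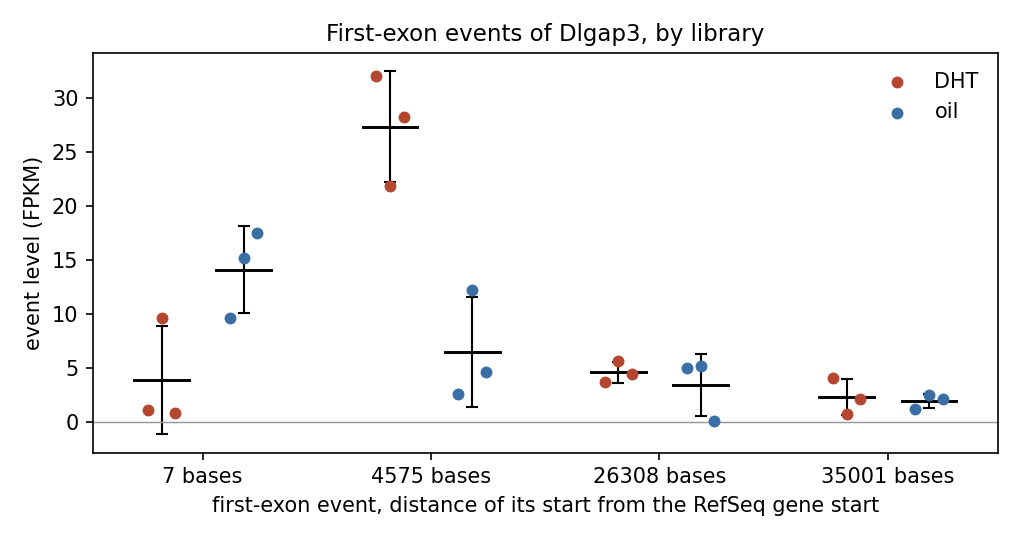
Level in FPKM of the 4 first-exon events of Dlgap3, placed by the distance of their start from the RefSeq gene start, one point per library, DHT left of oil, with the mean as a bar and 1 SD as whiskers (n = 3 each). At 4575 bases the DHT libraries lie at 21.84 to 32.02 FPKM and the oil libraries at 2.59 to 12.26 FPKM, and at 7 bases 2 of the 3 oil libraries lie above every DHT library.

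Among the 71 first-exon and last-exon events tested at these genes, 32 had a higher log2 ratio to the other events in DHT (45.1%, against 45.6% of all events). Events listed at 0 in every library, such as that of Dlg2 at 92062394, also took a sign, through the added 0.5 FPKM. The count is thus not one of changed shares. An unadjusted p under 0.05 was found for 6 of the 71, against 4.84% of all events (2067), and no event of any gene passed limma with adjustment (0%). The 6 lie at Dlgap3, Dlgap2 and the Dlg2 locus. First exons of 1 locus share a sum, so the 6 are not independent. At the Dlg2 locus the first exon at 91090706, at the RefSeq promoter of that region, had 25.29, 33.10 and 33.80 FPKM in DHT and 27.75, 12.35 and 22.59 FPKM in oil (log2 share ratio 1.05, adjusted p = 0.901 by limma). Its first exon at 91707921 had 0, 0.04 and 0.03 FPKM in DHT and 9.62, 0.19 and 5.06 FPKM in oil (-2.85, adjusted p = 0.901 by limma). At Dlgap2 the main first exon at 14095865 took 89.6%, 88.4% and 70.0% of the first-exon signal in DHT and 91.9%, 97.0% and 95.8% in oil, and the one at 14381734 took 9.4%, 10.1% and 28.0% in DHT and 7.2%, 2.1% and 3.4% in oil (adjusted p = 0.901 for both).

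The first exons of other members given next overlapped between the groups, apart from 2 minor ones of Dlg4. The main Shank3 first exon, next to the CG-rich window printed above, took 93.6%, 95.9% and 95.9% in DHT and 87.5%, 94.7% and 78.6% in oil. That of the Homer1 locus took 100% in all DHT libraries and 95.9%, 100% and 100% in oil. The main Dlg4 first exon with a RefSeq window had 63.54, 60.11 and 64.58 FPKM in DHT and 71.89, 73.20 and 49.12 FPKM in oil. A minor Dlg4 first exon from 70029487 to 70029875 did not overlap, at 0.62, 0.38 and 0.52 FPKM in DHT and 0.21, 0.32 and 0.14 FPKM in oil. Nor did another at 70030023, at 0.34 to 0.46 FPKM in DHT and 0.16 to 0.27 FPKM in oil (adjusted p = 0.901 by limma for the share of each). A larger Dlg4 first exon from 70029487 to 70029708 overlapped, at 18.86, 19.67 and 16.57 FPKM in DHT and 17.64, 15.52 and 15.96 FPKM in oil. The Shank1 first exon at 44342135 varied within groups, at 0.24, 6.93 and 23.62 FPKM in DHT and 72.19, 0.09 and 15.60 FPKM in oil, and the 115.06 FPKM of Shank1 in oil library 1 includes those 72.19 FPKM. The Dlgap1 first exon at 70809072 had 0.04 FPKM in DHT library 1 and 15.71 to 18.55 FPKM in the other 5 libraries.

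Splicing pairs set the FPKM of transcripts with an exon or intron against those without it, and 73 pairs of these genes were tested. Of these 43 had a higher log2 ratio in DHT (58.9%, against 48.3% of the 30110 pairs tested, with a median of 0.15 against -0.02). Some pairs had 100% inclusion in every library, such as that of Dlgap4 at 156707078 (0.26). Their sign follows the transcript level over the added 0.5 FPKM, so the count is not one of shifts in inclusion. An unadjusted limma p under 0.05 was found for 4 of the 73, against 4.79% of all pairs. None of the 73 passed adjustment, with adjusted p of 0.913 or more, against 0.0266% of all pairs. The pairs of Shank2 with the smallest p share their first exon at 144395463. Transcripts with those exons had 4.72, 3.66 and 4.23 FPKM in DHT and 2.29, 2.59 and 3.00 FPKM in oil (log2 0.95, SE 0.31). Transcripts without them were listed at 0 apart from 0.56 FPKM in oil library 3. Inclusion was thus 84.4% in that library and 100% in the others. The ratio mostly reflects the level of the transcripts with the exons. The second Shank2 pair, set against the same transcripts without them, had a log2 difference of 0.90. Another pair set against those had 5.99, 3.54 and 0.82 FPKM in DHT and 6.05, 0.60 and 0.83 FPKM in oil, with overlap.

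The 126-base exon of Dlgap2 at 14454401 was in 1.31, 1.28 and 2.21 FPKM of transcripts in DHT and 0.71, 0.05 and 0.26 FPKM in oil (0.98). Transcripts without it had 0.26, 0.18 and 1.61 FPKM in DHT and 0.43, 0.24 and 0.20 FPKM in oil. Inclusion was 83.7%, 87.5% and 57.8% in DHT and 62.5%, 17.3% and 56.2% in oil, with overlap. The 42-base exon of the Dlg2 locus at 92420632 had 0, 1.37 and 0 FPKM in DHT and 5.60, 10.47 and 1.22 FPKM in oil (log2 -2.51, groups overlapping), with almost no transcripts of that pair listed without it. In a second pair of the same exon, with other transcripts counted, those with it had 0.13, 8.20 and 9.25 FPKM in DHT and 0.47, 6.90 and 7.56 FPKM in oil, and those without it had 46.10, 41.97 and 43.81 FPKM in DHT and 49.99, 18.22 and 46.10 FPKM in oil (log2 -0.37, SE 1.55).

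For several small exons both forms were measured. The 30-base exon of Dlgap1 at 70718196 was included in 87.8%, 60.7% and 56.3% of transcripts in DHT and 39.4%, 51.3% and 53.6% in oil (log2 1.27, SE 0.64), without overlap. In a second pair of the same exon, with other transcripts counted, it was included in 96.4%, 79.4% and 76.1% in DHT and 66.8%, 76.7% and 77.3% in oil, with overlap (log2 1.18, SE 0.79). In the 2 remaining pairs of this exon the difference had the opposite sign, with overlap. It was included in 99.7%, 99.0% and 88.9% in DHT and 98.9%, 99.3% and 99.3% in oil in one (-0.44, SE 0.87), and in 98.9%, 97.6% and 76.4% in DHT and 96.8%, 97.7% and 98.0% in oil in the other (-0.36, SE 0.76). The 24-base exon of Shank1 at 44344298 was included in 70.9%, 51.9% and 27.5% in DHT and 35.8%, 11.6% and 29.8% in oil, with overlap. The 27-base exon of Shank1 at 44334033 was included in 44.5%, 71.8% and 70.8% in DHT and 31.9%, 28.9% and 63.2% in oil, also with overlap. The 4 exons of the leading Homer1 circle were in nearly all linear transcripts of the locus, at 18.60, 17.64 and 14.60 FPKM in DHT and 7.84, 14.71 and 17.42 FPKM in oil, with 0 listed without them. The 66-base exon of Dlg4 at 70026923 was included in 89.0%, 90.3% and 100% in DHT and 100%, 100% and 88.1% in oil.

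Other genes of the postsynaptic density, a list of 34 chosen with earlier results known, gave 32 gene values that could be tested. Of them 22 were higher in DHT and 10 lower, against 63.6% of all genes higher. The median was 0.14 on the log2 scale (0.08 after centring) against 0.07 (0.01) for all genes. After centring 20 of the 32 were higher, against 5839 of all 11368 genes. Unadjusted limma p-values under 0.05 were found for 4 higher, against 5.79% of all genes, and 0 lower, against 1.55%, and 0 passed adjustment. After centring there were 2 higher and 0 lower, against 359 and 326 of all 11368 genes. The actin regulator Abi1 averaged 8.22 ± 0.259 FPKM in DHT and 6.39 ± 0.447 FPKM in oil (SD, n = 3 each, 0.34 on the log2 scale, adjusted p = 0.652 by limma). Agap2 averaged 77.7 ± 1.25 FPKM in DHT and 64.1 ± 2.90 FPKM in oil (adjusted p = 0.652 by limma), and gephyrin (Gphn), the scaffold of inhibitory synapses, 9.91 ± 1.01 FPKM in DHT and 7.64 ± 0.985 FPKM in oil (adjusted p = 0.658 by limma). On the lower side Magi1, Cttn and Frmpd4 had the smallest p, with differences of -0.23, -0.17 and -0.12 and overlapping groups.

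Circles of that list were tested for 16 host genes, with 10 higher and 6 lower and a median of 0.02. Of all hosts 53% were higher, with a median of 0.03. The smallest p belonged to Ppp1r9a, which had 777, 53 and 53 reads in DHT and 34, 52 and 43 in oil, the high value being DHT library 1 alone (adjusted p = 0.589 by edgeR). Tanc2 had 14, 24 and 27 reads in DHT and 12, 11 and 13 in oil, and Abi2 19, 6 and 16 in DHT and 2, 5 and 12 in oil. On the lower side Sipa1l1, Gphn and Arhgef7 had log2 differences of -0.11, -0.15 and -0.21, all with overlapping groups.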

How the data were processed

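circRNA lists with back-splice junction counts and linear read counts were deposited by the authors, per the file headers, with circRNAs under 2 reads unlisted. The counting of linear reads is not stated. The deposited score, SRPBM (junction reads per giga mapped reads, per the labels), is rounded down and served only to obtain mapped reads. FPKM values were deposited by the authors per transcript event, per the file headers; an exact 0 can be a failed estimate. Tools named in the submitters' processing notes, with no role, are BWA, cutadapt, HISAT2 2.0.1 and bcl2fastq 2.17.1.14. The notes name mm9, but 99.29% of 11553 circRNAs with a host in the reference table lay within its GRCm38 bounds, so GRCm38 is used.

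edgeR 4.0.16 (quasi-likelihood, TMM, R 4.3.3) tested junction counts of circRNAs and host sums with at least 20 reads, and linear counts of circRNAs listed in all 6 libraries. limma 3.58.1 (empirical Bayes with trend) tested log2(FPKM + 0.5) of genes averaging 0.5 FPKM or more, log2 ratios of circular to linear reads and, for events of at least 1 FPKM in sum, splicing pairs and first-exon or last-exon shares. Fold changes understate those of low genes. Each p was Benjamini-Hochberg adjusted over the whole table, with a threshold of 0.05. DESeq2 1.42.0 was an alternative, as were other filters, pseudocounts, scalings and leaving out each library. In tests on simulated data, changes were called in linear reads and gene values, fewer in host sums and ratios, and none in circRNAs, splicing pairs or first-exon and last-exon shares. Exact intervals cover counting error only, and those of 2 SE include the spread between libraries.

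Member genes and lists were chosen with earlier results of these data known. All 10 genes are named, circles with at least 100 reads or an unadjusted p under 0.05 are given by library, and up to 2 events per gene with the smallest p, or any under 0.05, were eligible for naming, as were up to 3 other postsynaptic genes per direction; circles, events and library values beyond this were chosen after their values were seen. The loci that span Homer1 and Dlg2, and mapped reads as library size, were chosen after seeing the data. Python 3.11.15 with pandas 2.3.3, scipy and matplotlib read the files, ran exact permutation tests and drew the plots.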

Additional observations from a re-analysis of the deposited data

How the results depend on the processing

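No circRNA passed adjustment at 20 reads; 6 did at a minimum of 6 reads, 2 among those listed in all 6 libraries, and 0 to 1 without single libraries. For host sums 2 passed at 6 reads and 1 when only circRNAs listed in all 6 libraries were summed (an alternative added after seeing the data); none of these calls was a scaffold gene. Calls on linear reads numbered 14, against 23 with DESeq2, 23 with mapped reads as library size (added after seeing the data) and 5 to 19 without single libraries. DESeq2 also called the linear reads at the leading Dlgap1 circle (0.29, adjusted p 0.00805). Calls on ratios went from 1 to 0 with a pseudocount of 1 or at least 60 reads, and were 0 to 1 without single libraries. Calls on gene values went from 2 to 1 with a pseudocount of 0.1 or a mean of 1 FPKM, to 0 with first-exon or last-exon sums alone, and were 0 to 4 without single libraries. Splicing calls went from 8 to 3 at 5 FPKM and to 0 without any single library.

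The share of scaffold hosts higher in DHT was 57.1 to 100% without single libraries. Directions turned for Dlgap3 circles with exonic circRNAs only (-0.0093), linear reads at the 3-exon Homer1 circle without TMM (-0.024), centred Dlg4 and Dlg2 gene values (-0.032 and -0.031) and Dlgap1 last-exon sums (-0.52). Without single libraries, values ran from -0.14 to 0.35 (Dlg2 intronic circle), from -0.028 to 1.12, -1.86 to 1.143 and -0.16 to 0.36 (host sums of Dlgap2, Dlgap3 and Dlg2), from -0.050 to 0.057 and -0.21 to 0.053 (linear reads at the 3-exon Homer1 and the Dlg2 circle), from -0.032 to 0.71, -0.11 to 0.080 and -0.029 to 0.55 (ratios at the longest tested Shank3, the shorter Dlgap1 and the Dlgap2 circle), from -0.11 to 0.10, -0.038 to 0.18, -0.34 to 0.23, -0.042 to 0.17 and -0.085 to 0.097 (gene values of Dlg4, Shank3, Shank1, Dlgap2 and the Dlg2 locus), and from -2.85 to 0.015 and -3.25 to 0.49 (first exons of Dlgap1 at 70809072 and Shank1 at 44342135). The cause was not tested. Without the Homer1 and Dlg2 loci, 7 of 8 gene values were higher. No paired analysis was possible because the groups share no replicate numbers in the labels.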

Other observations

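Of the 55 scaffold circles, 3 were listed on the minus strand, although the genes lie on the plus strand: 2 intronic ones of Dlg2 and the single circle of Shank1, each with 2 reads in 1 oil library. The longest circle spanned 128084 bases of Dlgap1 (10 reads, listed in 4 libraries) and the shortest 162 bases, a length shared by a Dlgap1 circle (13 reads) and a Dlg2 circle (8 reads). Both ends of the Dlgap4 circle at chr2:156745835-156749356 matched exon edges. Transcripts that retained the introns from 156746196 to 156748944, inside its span, had at most 0.01 FPKM, so the span is not counted as 1 exon. That Dlgap4 circle had 9, 5 and 0 reads in DHT and 2, 2 and 0 in oil. These circles had too few reads for a test at the minimum of 20.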
